A study of Mus musculus with 10 samples.

Results

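The genes that encode the proteins of the cytosolic ribosome were followed in the left ventricle of mice whose aorta had been constricted. The probes were chosen by gene symbol: a symbol had to start with Rpl or Rps and a digit, or with Rplp and a digit, or be Rpsa, and the Rps6k kinases (11 probes) were left out. This gave 59 of the 26423 probes of the array, for 49 gene symbols. Of the 49 symbols, 47 are in current use and 2 are older names, Rps3a for Rps3a1 and Rps4y2 for Rps4l. The symbol rule also took in Rps19bp1, which encodes a protein that binds Rps19 and is not part of the ribosome. Its 1 probe is included in all counts and medians of the ribosomal protein probes below, and its values are also given by name. The rule did not take in pseudogenes by name, but 3 probes carry other symbols beside that of the ribosomal protein (Rpl3, Rpl41 and Rps26), so that their signal may include such copies.

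The mice were C57BL/6J males, 8 weeks old and 20 to 25 g in weight. They underwent either transverse aortic banding (TAB), a surgical narrowing of the aortic arch against which the left ventricle has to pump, or a sham operation without the band. RNA was taken from the left ventricle at 5 times between day 3 and day 28 (days 3, 5, 7, 14 and 28), with 1 TAB and 1 sham sample per day (5 TAB and 5 sham samples in all), and each was hybridized to 1 array in 1 colour. The TAB sample of day 14 carries 15 days in a second label and was used as day 14. How many mice a sample held is not given in the sources used here. No replicate exists within a day, and the tests below treat the 5 days as replicates of an average TAB effect, so that their p-values measure the spread between these samples.

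A ribosome is built from ribosomal RNA and a set of proteins, of which the Rpl proteins belong to the large subunit and the Rps proteins to the small one. The proteins Rplp0, Rplp1 and Rplp2 form the stalk of the large subunit, which recruits elongation factors. A few ribosomal proteins have paralogs with restricted expression, and the best known in heart and skeletal muscle is Rpl3l, which can take the place of Rpl3. The mRNAs of ribosomal proteins are known as a group whose translation is set together by growth signals, through a run of pyrimidines (C or T) at their 5′ end called the TOP motif. A growing heart is known to raise its capacity for protein synthesis, and ribosome production is a known part of hypertrophy. The leading markers of cardiomyocytes (Myh6, Tnnt2, Tnni3, Actc1, Myl2, Myl3, Ryr2 and Pln) were found on all 10 arrays.

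A spot was read as found unless its flag was negative, and 41 of the 59 probes (69.5%) were found on all 10 arrays, against 47.9% of all probes. None was saturated. After normalization, 53 probes for 44 symbols remained of the 19976 probes kept. Among the 6 probes removed for low intensity were those of Rpl8, Rps29, Rps3a and Rpsa and 1 of 2 of Rps27a. The probe of Rpl8 was found on 1 array, with a raw intensity of 3527, and the other removed probes were found on none. Of the 53 kept probes, 4 were found on no array and 8 on some, and their values are low and marked as such below. The median raw intensity of an array lay between 34 and 57.

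In the first week after banding, the log2 ratio of TAB over sham was above 0 for most ribosomal protein probes. Over the 53 probes, days 3, 5 and 7 had median log2 ratios of 0.31, 0.47 and 0.40, and days 14 and 28 had medians of −0.05 and 0.02. As a fold, the median on day 5 was 1.38. With each array scaled to its median only, without the quantile step, the median of day 3 was 0.58. With 50 added to the intensity before the log2, the medians of days 3, 5 and 7 were 0.20, 0.35 and 0.22. Over all kept probes, the median lay between −0.08 and −0.02 on the same days. The log2 ratio was above 0 for 35, 39 and 40 of the 53 probes on days 3, 5 and 7, where all kept probes gave 48.9%, 45.6% and 46.6%. On days 14 and 28 it was above 0 for 24 and 27 probes, where all kept probes gave 47.1% and 48.2%. The 41 probes found on all arrays had medians of 0.41, 0.48, 0.44, −0.05 and 0.02 on the 5 days. No p-value is given for these medians, since the probes of 1 sample are not independent.

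**Figure D1:**
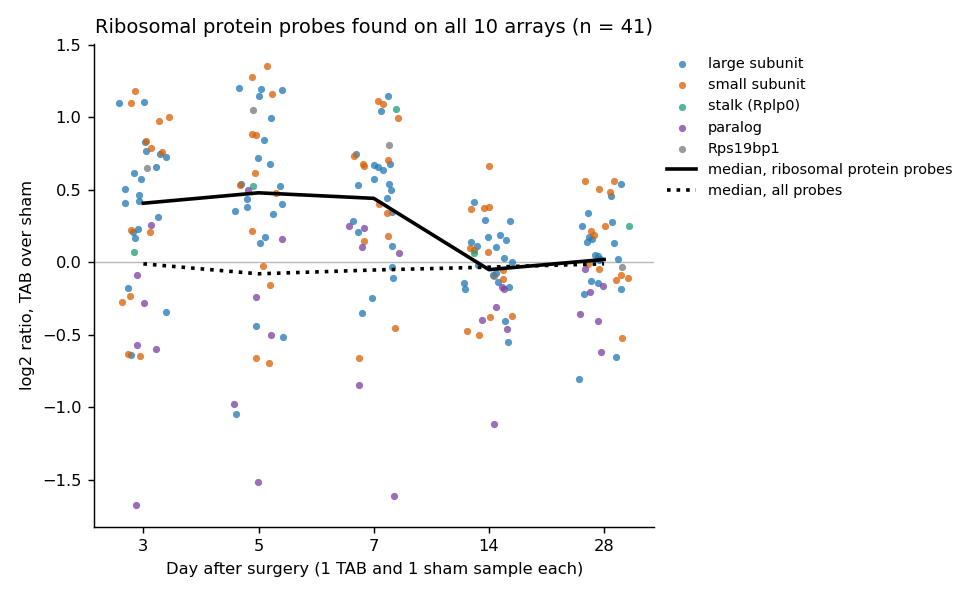
The log2 ratio of TAB over sham is plotted against the day after surgery for the 41 ribosomal protein probes found on all 10 arrays, 1 point per probe, coloured by subunit. The solid line joins their medians and the dotted line those of all 12654 probes found on all 10 arrays. The medians of the ribosomal protein probes were 0.41, 0.48 and 0.44 on days 3, 5 and 7 and lay near 0 on days 14 and 28, and the lowest points on days 3, 5, 7 and 14 belong to the paralog Rpl3l.

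The medians are also given by subunit, and the difference between subunits was not tested. The 28 large-subunit probes had median log2 ratios of 0.48, 0.45 and 0.52 on days 3, 5 and 7 and of 0.07 and 0.09 on days 14 and 28. The 15 small-subunit probes had medians of 0.76, 0.53 and 0.40 on the early days and of −0.05 and −0.01 on the late days. Those found on all arrays, 13 of the small subunit, had medians of 0.76, 0.53, 0.66, 0.07 and 0.19 on the 5 days. For the 20 such probes of the large subunit they were 0.48, 0.48, 0.52, 0.01 and 0.05. The 8 probes of paralogs, 3 of them of Rpl3l, had medians of −0.43, −0.15, 0.09, −0.29 and −0.28. No difference between these classes was tested. The stalk protein Rplp0, with 1 probe, had log2 ratios of 0.07, 0.53, 1.05, 0.07 and 0.25.

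Single probes followed the same course. The log2 ratio was above 0 on each of days 3, 5 and 7 for 33 of the 53 probes (62.3%), against 26.5% of all kept probes, and below 0 on each of them for 9 (17%), against 31.1%. For 31 probes (58.5%) the lowest ratio of the 3 early days lay above the highest of days 14 and 28, against 16.3% of all kept probes. The reverse order was seen for 5 probes (9.43%, against 15.4%).

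Between the early and the late days, the TAB samples went down and the sham samples went up by less. From each of days 3, 5 and 7 to each of days 14 and 28, the median log2 difference of the 53 probes lay between −0.32 and −0.23 among the TAB samples and between 0.10 and 0.17 among the sham samples. Over all 10 pairs of sham samples of different days, the median lay between −0.05 and 0.17 with an SD of 0.08. The medians of TAB over sham on days 3, 5 and 7 (0.31 to 0.47) all lay above that range, and those of days 14 and 28 lay within it. The sham samples are those of the ratios too, so that the 2 sets of values are not independent.

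The late minus early TAB effect was then tested as an interaction of operation with days 14 and 28 against days 3, 5 and 7 (limma, all 10 samples). The median effect over the 53 probes was −0.45, against 0.02 over all kept probes. After Benjamini-Hochberg adjustment 0 of the 53 probes passed 0.05, as did 0 (0%) of the 19976 kept probes, and the lowest adjusted p of all was 0.227. At an unadjusted p under 0.05 the effect was lower on the late days for 18 of the 53 probes (34.0%), against 6.03% of all kept probes, and higher for 2 (3.77%), against 4.42%. With the variance trend and robust option of limma on, 35 of all kept probes passed the adjusted threshold, and again 0 of the 53. With probes not found on all arrays left out, 9 of 12654 passed (0.0711%), and 0 of 41 ribosomal protein probes. Differences between early and late days are therefore given here as values of single probes that did not pass the test across all probes.

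Averaged over the 5 days, 10 of the 53 ribosomal protein probes passed an adjusted p of 0.05 (limma, day as a block). Among them, 6 were higher in TAB (11.3%), where 7.47% of all kept probes were, and 4 were lower (7.55%), where 6.73% were. In this fit the shares lie near the background. The share of higher calls depended on the setting. With no day block it was 24.5% of the ribosomal protein probes against 10.1% of all kept probes. It was 26.4% against 11.5% with limma's trend and robust options on, and 24.5% against 11.8% with 50 added. With the brightest probe per gene it was 20.5% against 9.52%. With values below 1 set to 1, 0 of 59 ribosomal protein probes were higher, against 0.999% of all probes. The shares were not tested against each other. The 2836 calls over all kept probes were 1492 higher and 1344 lower. With median scaling only they were 1747 higher and 884 lower, and with quantile normalization within each operation 1856 and 979, and these settings called 7 ribosomal protein probes higher and 3 or 4 lower. The median of the mean TAB effect was 0.30 over the 53 probes and −0.05 over all kept probes. At an unadjusted p under 0.05, 17 probes were higher (32.1%, against 15.7% of all) and 5 lower (9.43%, against 18.1%). The 6 higher probes that passed the adjusted threshold were those of Rpl24, Rpl13 and Rpl27a (1 of 2 probes) of the large subunit and of Rps24, Rps7 (1 of 2 probes) and Rps13 of the small one. The 4 lower ones that passed it were 2 of the 3 probes of Rpl3l and those of Rpl6 and Rps15a (1 of 2 probes).

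Without day 3, 5, 7 or 14, the mean difference lay between 0.79 and 1.04 for Rps24, between 0.70 and 0.93 for the called probe of Rps7 and between 1.31 and 1.63 for Rpl24. No ribosomal protein probe passed the threshold then, and calls over all kept probes dropped from 2836 to 13, 35, 23 and 184. Without day 28, 7 ribosomal protein probes were higher (13.2%, against 7.28% of all kept probes) and 3 lower, and 2773 of all kept probes passed. When probes not found on all 10 arrays were left out before the fit, a choice made after seeing the data, 14 of 41 ribosomal protein probes were higher (34.1%, against 16.1% of all 12654 such probes) and 4 lower (9.76%, against 18.5%). Rpl14, Rpl29, both probes of Rpl30, Rpl31, Rps16, Rps21, Rps25 and the second probe of Rpl27a were among those called higher in that fit in addition.

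**Figure D2:**
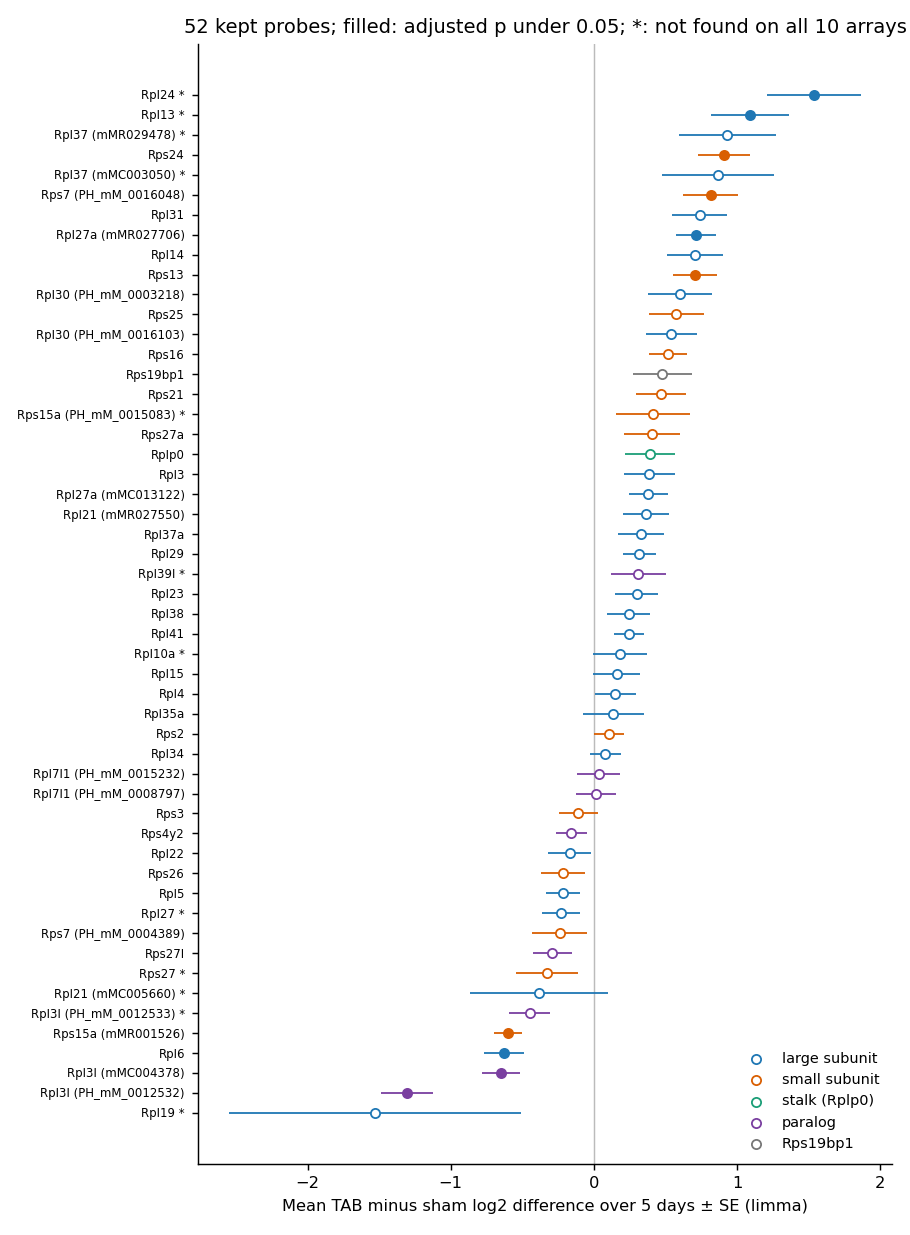
The mean TAB minus sham log2 difference over the 5 days is plotted with its SE from limma for 52 of the 53 kept probes, sorted by size and coloured by subunit; filled points passed an adjusted p of 0.05 and an asterisk marks probes not found on all 10 arrays. The points run from Rpl24 (1.54) to Rpl19 (−1.53), most lie above 0, and the wide bar of Rpl19 comes from 1 sham sample.

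The start sites of the 9 genes with a called probe are shown because the TOP motif is read at the first bases of the mRNA. Each line gives the coding strand in the 5′ to 3′ direction, 15 bases before and 15 bases from the RefSeq start on, in the mouse build GRCm38.p6. Capitals mark runs of at least 6 pyrimidines.
Rpl13, chr8:123102335-123102364, plus strand: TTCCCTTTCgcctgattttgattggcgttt
Rpl24, chr16:55966260-55966289, plus strand: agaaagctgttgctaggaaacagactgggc
Rpl27a, chr7:109519180-109519209, plus strand: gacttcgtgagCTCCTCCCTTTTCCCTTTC
Rps13, chr7:116334176-116334205, minus strand: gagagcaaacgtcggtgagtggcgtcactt
Rps24, chr14:24490663-24490692, plus strand: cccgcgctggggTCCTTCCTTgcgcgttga
Rps7, chr12:28635939-28635968, minus strand: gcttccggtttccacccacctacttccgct
Rpl3l, chr17:24727811-24727840, plus strand: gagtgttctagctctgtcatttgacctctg
Rpl6, chr5:121204486-121204515, plus strand: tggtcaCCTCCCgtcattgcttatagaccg
Rps15a, chr7:118116133-118116162, minus strand: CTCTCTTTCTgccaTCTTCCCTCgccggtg

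A run of at least 8 pyrimidines within 25 bases of the start on either side was found in 20 of the 49 RefSeq promoters that matched 39 of the ribosomal protein symbols (40.8%), against 19.7% of all 32851 promoters. The same length of purines, which is the pyrimidine run of the other strand, was found in 12.2% of them and in 21.6% of all promoters. Among the 9 starts shown, 4 held such a run, namely Rpl13, Rpl27a and Rps24, with a probe higher in TAB, and Rps15a, with a probe lower in TAB. The run shown for Rpl13 ends before the annotated start and so lies outside the annotated mRNA. Rps24 and Rpl3l have 2 RefSeq promoters each, of which the most upstream is shown. The start of Rpl3l, the gene with the lowest called value, held none, and neither did those of Rpl24, Rps13, Rps7 and Rpl6. A run of these letters is a description of the annotated start and no evidence of translation control, which mRNA arrays do not measure.

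The lowest called values were those of Rpl3l, the striated-muscle paralog of Rpl3. On its probe PH_mM_0012532, the log2 intensity was 9.95, 9.98, 10.06, 10.02 and 10.64 in the TAB samples of days 3, 5, 7, 14 and 28. In the sham samples of the same days it was 11.62, 11.49, 11.67, 11.13 and 11.26. Every TAB sample lay below every sham sample, and the TAB sample of day 28 was the highest of its group. The mean difference was −1.31 ± 0.18 (SE), or 2.47-fold lower in TAB, with an adjusted p of 0.0191 (limma). The log2 ratio was −1.67, −1.52 and −1.61 on the early days and −1.11 and −0.62 on days 14 and 28. This narrowing of 0.73 had an unadjusted p of 0.0259 and an adjusted p of 0.439 in limma.

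A second probe of Rpl3l, mMC004378, gave a log2 intensity of 13.57, 13.17, 13.45, 13.48 and 13.74 in the TAB samples. The sham samples gave 14.17, 14.15, 14.30, 13.94 and 14.10, so that the groups again did not overlap. The mean difference was −0.65 ± 0.13 (SE), or 1.57-fold lower, with an adjusted p of 0.0329 (limma). The third probe, PH_mM_0012533, was dim and was found on 9 of the 10 arrays. Its log2 ratios were all below 0, between −0.77 and −0.06, and its mean difference of −0.45 ± 0.14 (SE) had an adjusted p of 0.0852 (limma). The 3 probes had the same sign and differed in size, and the transcripts each of them binds are not given in the sources used here. Without any 1 of days 3, 5, 7 and 14 the adjusted p of the first probe lay between 0.0519 and 0.0822.

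Rpl3 itself, which lies close to the peptidyl transferase centre of the large subunit, had the opposite sign. Its log2 intensity was 12.27, 12.37, 12.18, 12.13 and 12.05 in the TAB samples and 11.51, 11.83, 11.44, 12.10 and 12.19 in the sham samples. The 3 early TAB samples lay above the sham samples of the same days by 0.76, 0.54 and 0.74, and the late differences were 0.03 and −0.14. The sham samples of days 14 and 28 were higher than the early ones, and the TAB samples varied less (SD 0.13 against 0.34). The mean difference of 0.39 ± 0.18 (SE) did not pass the test (limma, adjusted p = 0.183). The late minus early effect was −0.74 ± 0.20 (SE), with an unadjusted p of 0.0142 and an adjusted p of 0.432 in limma. The probe also carries the symbols Gm5879 and LOC674810, so that signal from such copies cannot be told apart from that of Rpl3.

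**Figure D3:**
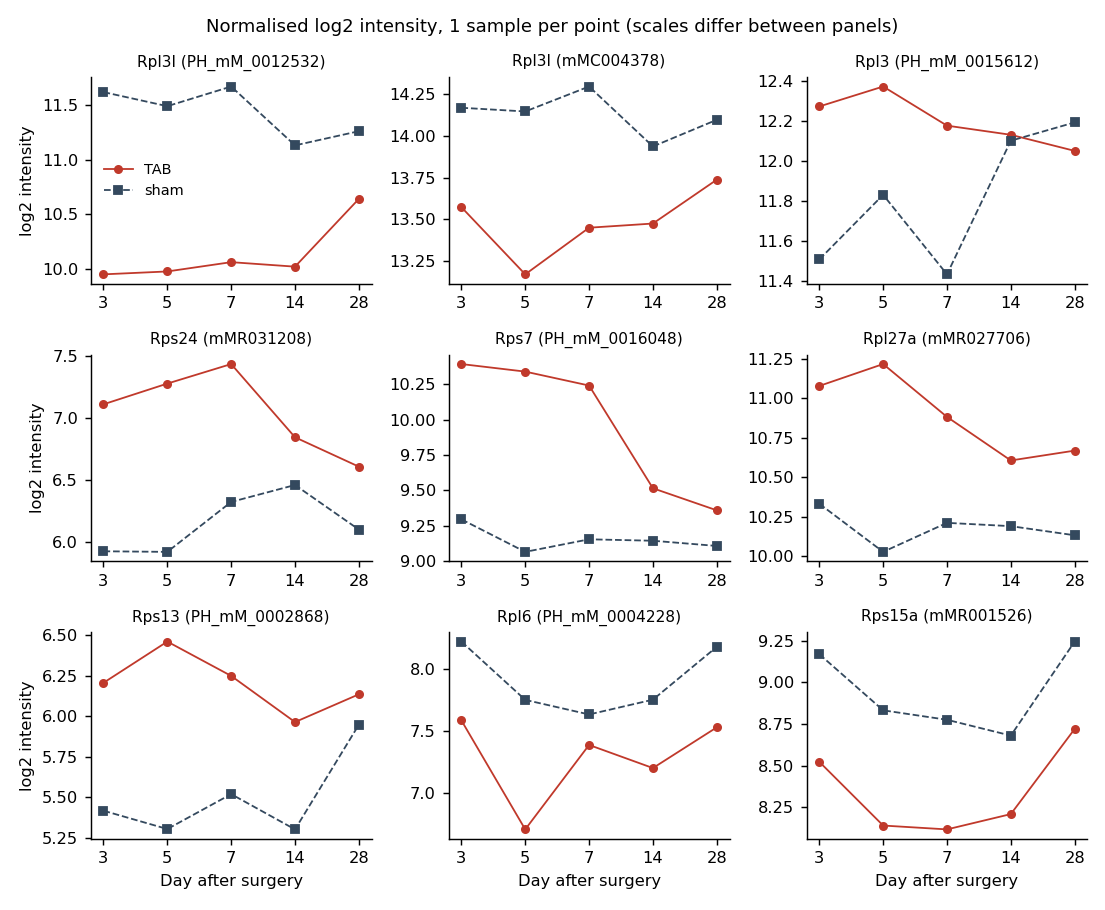
The normalised log2 intensity is plotted against the day after surgery for 9 ribosomal protein probes, with TAB as red circles and sham as dark squares, 1 sample per point, and a scale of its own for each panel. The Rpl3l lines of TAB and sham did not cross on either probe, those of Rpl3 met at day 14, and the TAB lines of Rps24 and Rps7 came closer to the sham lines on days 14 and 28.

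Of the small subunit, Rps24 had the largest called difference. Its log2 intensity was 7.11, 7.28, 7.43, 6.85 and 6.61 in the TAB samples, and 5.93, 5.92, 6.33, 6.46 and 6.10 in the sham samples. All TAB samples lay above all sham samples, and the highest TAB values were those of the early days. Over the 5 days the difference averaged 0.91 ± 0.18 (SE), or 1.87-fold, with an adjusted p of 0.0319 (limma). The log2 ratio of 1.11 to 1.35 on days 3, 5 and 7 compares with 0.38 and 0.51 on days 14 and 28.

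Rps7, a protein of the small subunit that is also known to take part in its assembly, was measured by 2 probes. The probe PH_mM_0016048 gave 10.39, 10.34, 10.24, 9.51 and 9.36 in the TAB samples and 9.29, 9.06, 9.15, 9.14 and 9.11 in the sham samples. The sham samples were close together (SD 0.09), and the early TAB samples were separate from the late ones. The mean difference was 0.82 ± 0.19 (SE), or 1.76-fold, with an adjusted p of 0.0433 (limma).

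Rps13 is another small-subunit protein. Its log2 intensity was 6.21, 6.46, 6.25, 5.96 and 6.14 in the TAB samples and 5.42, 5.30, 5.52, 5.30 and 5.95 in the sham samples. The groups did not overlap, although the lowest TAB and the highest sham sample differed by little. Its mean difference was 0.71 ± 0.16 (SE), with an adjusted p of 0.0381 (limma).

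Of the large subunit, the probe mMR027706 of Rpl27a gave 11.08, 11.22, 10.88, 10.61 and 10.67 in the TAB samples and 10.33, 10.03, 10.21, 10.19 and 10.13 in the sham samples. All TAB samples lay above all sham samples, also on days 14 and 28. The mean difference was 0.71 ± 0.14 (SE), or 1.64-fold, with an adjusted p of 0.0313 (limma). The other 2 large-subunit probes that were higher in TAB, those of Rpl24 and Rpl13, were dim. The probe of Rpl24 was found on all 5 TAB arrays and on no sham array. Its log2 intensity was 6.12, 5.86, 5.68, 5.32 and 4.41 in the TAB samples and between 3.22 and 4.32 in the sham samples. The measured difference was 1.54 ± 0.33 (SE, limma adjusted p = 0.036). A bound against the sham arrays used the higher of the probe's own signal and the lowest found signal of each array. It came to 2.67-fold. This is no firm lower limit, since spots above the lowest found signal of an array were also not found. The probe of Rpl13 was found on 2 TAB arrays and on no sham array, with 5.23, 5.05, 5.04, 4.08 and 3.87 in the TAB samples and between 3.24 and 4.08 in the sham samples. Its measured difference was 1.09 ± 0.27 (SE, limma adjusted p = 0.0484), with no bound given, since 3 of the 5 TAB spots behind it were not found. Both probes had their lowest TAB value on day 28.

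Besides Rpl3l, the probes of Rpl6 and Rps15a were lower in TAB. Rpl6, a protein of the large subunit, had a log2 intensity of 7.58, 6.70, 7.39, 7.20 and 7.53 in the TAB samples and 8.22, 7.75, 7.63, 7.75 and 8.18 in the sham samples. The groups did not overlap, and the largest gap was that of day 5, with a log2 ratio of −1.05. The mean difference was −0.63 ± 0.14 (SE), or 1.54-fold lower, with an adjusted p of 0.0383 (limma). The probe mMR001526 of Rps15a, a small-subunit protein, gave 8.52, 8.14, 8.12, 8.21 and 8.72 in the TAB samples and 9.17, 8.83, 8.78, 8.68 and 9.25 in the sham samples. The TAB sample of day 28 lay above the sham sample of day 14, but the difference within a day was steady, with log2 ratios between −0.69 and −0.47. On average the difference was −0.60 ± 0.10 (SE), or 1.51-fold lower, with an adjusted p of 0.0246 (limma). The late minus early effects of these probes were 0.04 ± 0.29 and 0.17 ± 0.18 (SE).

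Where a gene had several probes, they did not always agree. The second probe of Rps7, PH_mM_0004389, was also found on all 10 arrays, and its log2 ratios were −0.27, −0.66, −0.45, −0.37 and 0.56, with a mean difference of −0.24 ± 0.19 (SE, limma adjusted p = 0.43). The second probe of Rps15a was found on no array, and its values are therefore no measurement of Rps15a. For Rpl21, the bright probe mMR027550 gave log2 ratios of 0.50, 0.72, 0.65, −0.07 and 0.03, whereas the probe mMC005660, found on 4 arrays, gave values from −1.72 to 1.55. The second probe of Rpl27a, mMC013122, followed the first with 0.42, 0.68, 0.58, −0.02 and 0.25, but its mean difference of 0.38 ± 0.14 (SE) did not pass the test (limma, adjusted p = 0.109). The 2 probes of Rpl30 gave 1.10, 1.18, 0.68, −0.00 and 0.05 and 0.65, 1.15, 0.64, 0.14 and 0.13.

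**Figure D4:**
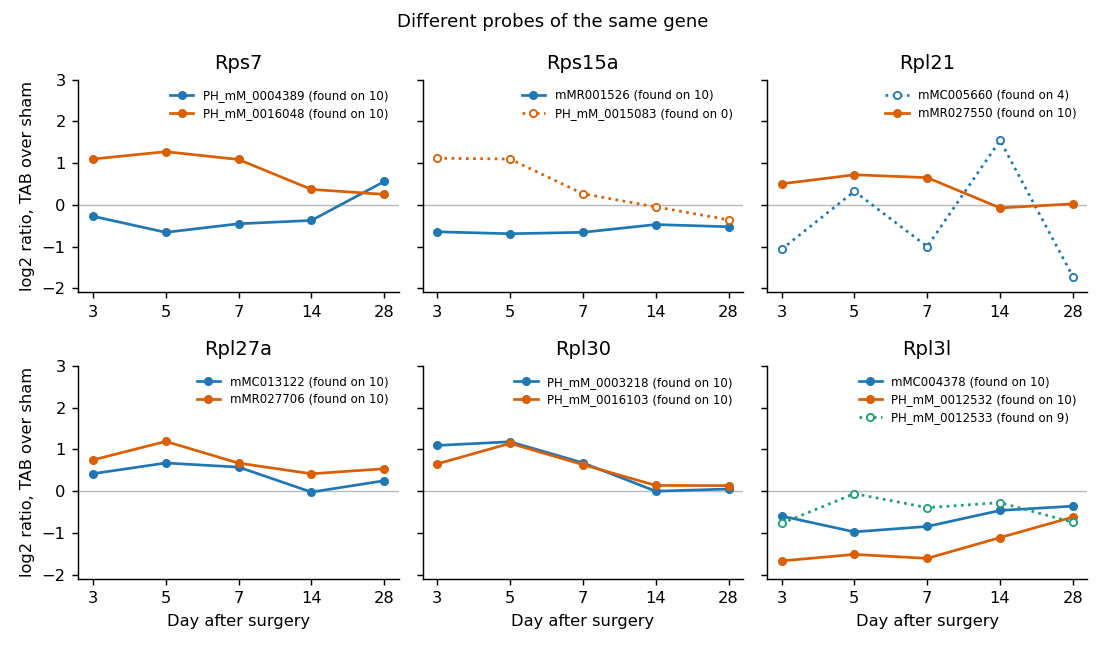
The log2 ratio of TAB over sham is plotted against the day after surgery for 6 ribosomal protein genes with more than 1 probe, 1 line per probe; open circles and dotted lines mark probes not found on all 10 arrays. The 2 probes of Rpl27a and of Rpl30 ran together, the 3 probes of Rpl3l stayed below 0, and the 2 probes of Rps7 lay on opposite sides of 0 on days 3 to 14.

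Several probes that did not pass the test across the 5 days had the early pattern in full, and they are named here after their values were seen. Rpl14 of the large subunit gave log2 ratios of 1.11, 1.00, 1.04, 0.11 and 0.28 (mean 0.71 ± 0.19, SE, limma adjusted p = 0.0601). Rpl31 gave 0.83, 1.20, 1.15, 0.18 and 0.34 (mean 0.74 ± 0.19, SE, limma adjusted p = 0.0522), and its groups did not overlap. Rps25 of the small subunit gave 0.84, 0.88, 1.00, −0.05 and 0.22, and Rps27a, which is made as a fusion with ubiquitin, gave 1.00, 0.48, 0.70, −0.11 and −0.05. In all, the TAB samples lay above the sham samples without overlap for 7 probes (13.2%, against 8.78% of all kept probes) and below them for 3 (5.66%, against 7.59%).

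Other courses are given here for 3 large-subunit genes, also chosen after their values were seen. Rpl22, known also for a role in T cell development, gave log2 ratios of −0.34, −0.51 and −0.35 on the early days and of 0.19 and 0.17 on the late ones, with a mean of −0.17 ± 0.15 (SE). Rpl5, which carries the smallest ribosomal RNA into the large subunit, gave −0.18, −0.44, −0.11, −0.41 and 0.04. Rpl41, the shortest ribosomal protein, gave values above 0 on every day, of 0.23, 0.13, 0.11, 0.28 and 0.46, on a probe that also carries the symbol Gm10736. None of these 3 passed the test.

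Among the other paralogs, none passed the test (limma, adjusted or at an unadjusted p under 0.05). Rpl39l, a paralog of Rpl39 best known from testis, was dim and was found on 6 arrays, with log2 ratios of 0.30, 1.07, 0.28, 0.02 and −0.11 and a mean of 0.31 ± 0.19 (SE). Rps27l, a paralog of Rps27 known as a p53 target, gave −0.57, −0.50, 0.06, −0.40 and −0.05, with a mean of −0.29 ± 0.14 (SE). The 2 probes of Rpl7l1 had means of 0.02 ± 0.14 and 0.04 ± 0.15 (SE), and Rps4y2, a paralog of Rps4x, had a mean of −0.16 ± 0.11 (SE). The adjusted p of these 5 probes lay between 0.197 and 0.954 (limma).

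Of the stalk proteins, Rplp0 was measured. Its log2 intensity was 8.95, 9.26, 9.59, 9.08 and 8.98 in the TAB samples and 8.88, 8.74, 8.53, 9.02 and 8.73 in the sham samples, so that the groups overlapped. The mean difference of 0.39 ± 0.18 (SE) did not pass the test (limma, adjusted p = 0.175), and the highest ratio was that of day 7 (1.05). Rpsa, a small-subunit protein also known as a laminin receptor, was found on no array and was among the removed probes. Rps19bp1, the binding protein, gave log2 ratios of 0.65, 1.05, 0.81, −0.10 and −0.03, with a mean of 0.48 ± 0.21 (SE, limma adjusted p = 0.164).

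The largest single ratios were those of dim probes. The methods of the study call a ratio past 2 SDs of a day, and here the SD was taken over all kept probes of this normalization. By this rule, 3, 0, 1, 2 and 0 ribosomal protein probes were higher on days 3, 5, 7, 14 and 28, against 3.07%, 3.77%, 3.71%, 3.29% and 3.36% of all kept probes. On the same days 0, 1, 0, 0 and 1 were lower, against 2.33%, 1.69%, 1.77%, 2.37% and 2.55%. Each of these 8 calls belonged to a probe of Rpl37, Rpl13, Rpl24, Rpl19 or Rpl21 that was found on at most 1 of the 2 arrays of that day. Of the 41 probes found on all arrays, none was called on any day by this rule. With an absolute log2 ratio of at least 1 as the rule, 11, 15, 8, 6 and 1 of the 53 probes were called on the 5 days, against 18.7%, 20.5%, 17.1%, 12.9% and 11.3% of all kept probes. Rpl19 had the lowest mean difference of the group, −1.53 ± 1.02 (SE, limma adjusted p = 0.343), and this came from the sham sample of day 5, with a log2 intensity of 11.01 where the other 4 sham samples lay between 4.56 and 4.98. Without day 5 its mean difference was −0.27. The 2 probes of Rpl37 and the probe of Rpl27 were found on no array, and their measured differences of 0.93, 0.87 and −0.23 are differences between spots not well above background.

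The medians of the other gene lists of translation differed from list to list. The 9 elongation factor probes came closest by day, with median log2 ratios of 0.35, 0.62, 0.26, −0.03 and −0.15. The medians of days 3 and 5 are the values of the probe of Eef1d, which was found on no array. Of the 9 probes, 0 passed the test (limma, median of the mean effect 0.07). At an unadjusted p under 0.05, 2 of the 9 were higher (1 of the 3 probes of Eif5a, and Eef1e1) and 1 lower (Eef1b2), and under other settings of the fit up to 2 passed. The symbols of this list start with Eef or Eif5a, and Eef1e1 and Eef2k in it are not elongation factors themselves. The 38 initiation factor probes had a median of 0.00, with 1 higher and 1 lower (2.63% each), where 7.47% and 6.73% of all kept probes were. Eif6, which keeps the subunits apart, was higher by 0.57 ± 0.12 (SE, limma adjusted p = 0.0377). Eif1, which takes part in start codon choice, was lower by a difference of −0.63 ± 0.12 (SE, limma adjusted p = 0.031). At an unadjusted p under 0.05 (limma), 4 of the 38 were higher and 5 lower, and under other settings between 0 and 5 passed. The 104 probes of ribosome assembly genes had a median of 0.03, with 3 higher (2.88%) and 2 lower (1.92%), where 7.47% and 6.73% of all kept probes were. Of the 104, 9 were higher and 7 lower at an unadjusted p under 0.05, and under other settings between 0 and 12 passed. The shares were not tested against each other. Those higher at the adjusted threshold were Rrp12 (0.88) and both probes of Bop1 (0.48 and 0.44), and those lower were Wdr43 (−0.75) and Pes1 (−0.68). Bop1 and Pes1 are partners in 1 complex of large-subunit assembly and were called in opposite directions.

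Among 18 probes of RNA polymerase I, which makes most of the ribosomal RNA, 1 was higher (5.56%, against 7.47% of all kept probes). It was 1 of the 2 of Cd3eap (0.39), the other gave 0.09 (limma adjusted p = 0.716), and the median of the list was 0.06. At an unadjusted p under 0.05 (limma), 2 of the 18 were higher and 3 lower. Under other settings between 0 and 4 of the 18 passed. Of 25 probes for genes of translation control, 1 was lower (Rheb, an activator of mTOR, −0.60), where 6.73% of all kept probes were. At an unadjusted p under 0.05, 4 of the 25 were higher and 3 lower, and under other settings between 0 and 7 passed. Of 24 probes for protein folding and transport at the ribosome, 1 was higher (Sec61a1, 0.65), or 4.17%, where 7.47% of all kept probes were. Of the 24, 4 were higher and 1 lower at an unadjusted p under 0.05, and under other settings between 0 and 4 passed. Of 9 probes for other mRNAs with a TOP motif, 2 were higher (22.2%, against 7.47% of all kept probes), Vim (1.06) and Lgals1 (0.99). The median was −0.06. At an unadjusted p under 0.05 (limma), 2 of the 9 were higher and 2 lower, and under other settings between 0 and 4 passed. Vim and Lgals1 are also expressed in fibroblasts and leukocytes. Of 3 probes for other genes of the cytosolic ribosome, 1 was lower (33.3%, against 6.73% of all kept probes). This was 1 of the 2 probes of Fau, which encodes a small-subunit protein in a fusion (−0.68), and the other gave 0.08.

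The mitochondrial ribosomal proteins, which are encoded in the nucleus and serve a separate ribosome, had medians below 0 on all 5 days. Their 72 kept probes had median log2 ratios of −0.22, −0.19, −0.17, −0.19 and −0.07 on the 5 days, with 0 higher and 6 lower (limma, median of the mean effect −0.18) and, at an unadjusted p under 0.05, 1 higher and 23 lower. The 6 lower calls are 8.33% of the 72 probes, near the 6.73% of all kept probes, and the 23 are 31.9%, against 18.1%. Over the 18 alternative settings, between 0 and 19 of these probes passed, and their median stayed below 0. The lowest of those called and found on all arrays were Mrps35 (−0.88), Mrps31 (−0.77) and Mrpl39 (−0.77), and the called probe of Mrpl45 was found on no array. The difference between the 2 sets of ribosomal proteins was not tested, since probes of 1 sample are not independent.

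**Figure D5:**
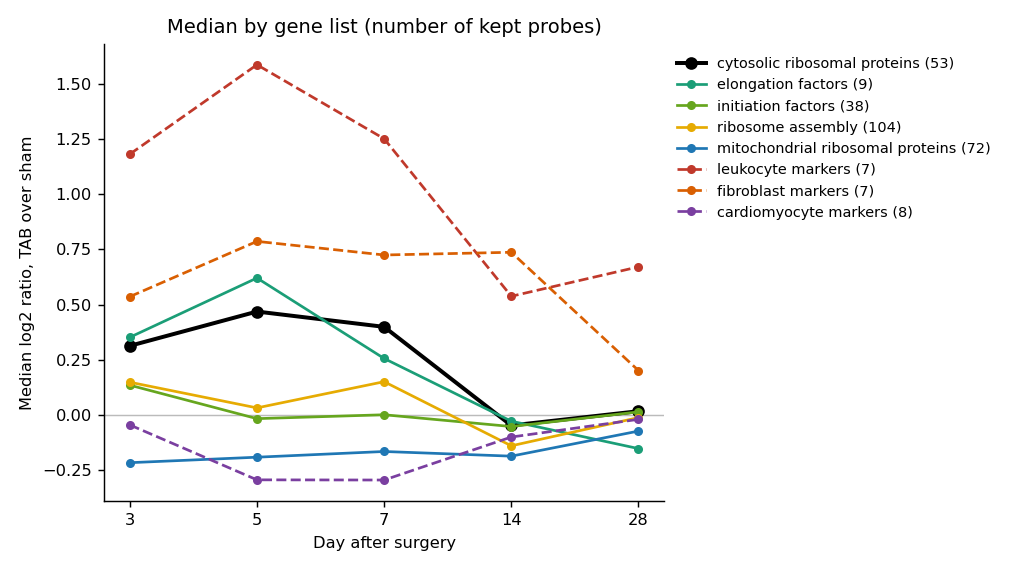
The median log2 ratio of TAB over sham is plotted against the day after surgery for the ribosomal protein probes (thick black line), 4 other gene lists of translation (solid lines) and 3 lists of cell type markers (dashed lines), with the number of kept probes in brackets. The line of the ribosomal proteins reached 0.47 on day 5 and lay near 0 on days 14 and 28, that of the leukocyte markers reached 1.59 on day 5, and that of the mitochondrial ribosomal proteins stayed below 0 on all 5 days.

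Markers of other cell types moved over the same days. In a piece of ventricle, fewer cells of a type and less RNA per cell cannot be told apart. Of 7 kept leukocyte marker probes, 5 were higher in TAB (71.4%, against 7.47% of all kept probes). Another 1 was lower (14.3%, against 6.73%), the T cell marker Cd3e (−0.59). The remaining one, the B cell marker Cd79a, had a mean difference of −0.49 (limma, unadjusted p = 0.0115, adjusted p = 0.0633). The median log2 ratio of the leukocyte list was 1.18, 1.59, 1.25, 0.54 and 0.67, and the largest mean differences were those of Cd68 (2.01), Emr1 (1.45), Itgam (1.26) and Ptprc (1.26). Its summed intensity lay between 2445 and 5343 in the TAB samples and between 1740 and 2258 in the sham samples. Of 7 kept fibroblast probes, 4 were higher (57.1%, against 7.47% of all kept probes), Col3a1 (3.68), Col1a2 (3.49), Postn (3.37) and Lum (0.59). The summed intensity of the fibroblast markers lay between 58218 and 80058 in TAB and between 46597 and 51165 in sham. The probes of Col1a1 and Pdgfra did not pass the filter. Of 8 cardiomyocyte, 8 endothelial and 2 erythroid probes, none passed the test, with medians of −0.14, 0.10 and 0.52. At an unadjusted p under 0.05, 2 of these probes were lower (Ryr2 and Tnni3) and 2 higher (Cdh5 and Alas2), and under other settings up to 2 cardiomyocyte and 1 erythroid probe passed. Under those settings between 0 and 7 leukocyte and between 0 and 5 fibroblast probes passed. The summed intensity of the cardiomyocyte markers lay between 248936 and 259467 in TAB and between 256582 and 288899 in sham. The part of these cell types in the values of the ribosomal protein probes was not tested.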

How the data were processed

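RNA of 10 left ventricle samples (5 TAB and 5 sham) was measured in 1 colour (Cy5) on Mouse Whole Genome OneArray slides of oligonucleotide probes. The authors deposited raw spot intensity values, background subtracted by a method not given in the sources used here and unscaled between arrays. The deposited detection p-value of each spot was not used. The authors also deposited flags without saying what they mean, and a negative flag was read as a spot not found, as GenePix commonly uses it. All bounds rest on this reading.

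All arrays were brought to the same median, probes below 1 on any array after this scaling were removed, and the rest were quantile normalized (the median at each rank as target) and put on the log2 scale. The probe was the feature, since choosing 1 probe per gene by its change, as the methods of the study do, selects on the outcome. Tests were made with limma 3.58.1 in R 4.3.3 (lmFit and eBayes, trend and robust off) with day as a block, on all 19976 kept probes with Benjamini-Hochberg adjustment at 0.05. Means over days are given with the SE of that fit and with 5 samples a group. For a probe found on no array of 1 group, a bound was computed against the higher of its own signal and the lowest found signal of each array. Only the bound of Rpl24 is given here. Gene symbols are those of the array, and start sites come from RefSeq. The scripts were tested on simulated data. Precision is limited by the number of arrays.

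The members, gene lists, tests and naming rule were chosen with earlier results of these data known. Named were Rpl3, the paralogs, the stalk genes and Rpsa, all called ribosomal protein probes, the 5 with the highest and the 5 with the lowest mean difference, genes whose probes differed in sign or call and, per other list, up to 4 called genes with the largest difference. Others are named as chosen after their values were seen. Alternatives were no quantile step, a quantile step within each operation, mean in place of median ranks, 50 added to the intensity, the lowest tertile of probes left out, values below 1 set to 1, 1 probe per gene by largest change, by brightness or as a mean, saturated probes (65000 or more) left out, no day block, trend and robust on, an absolute log2 ratio of at least 1 for the calls by day, each day left out and, added after seeing the data, probes not found on all arrays left out. Other tools were Python 3.11.15, pandas 2.3.3 and matplotlib 3.10.9. Some genes are not reported by name here, and the miRNA arrays were not analysed here.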

Additional observations from a re-analysis of the deposited data

Results flagged for a closer look

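In each group of 5 samples, the highest or the lowest sample of a ribosomal protein probe was set apart when its gap to the nearest other sample, divided by the range of the group, was above 0.71. This was the case in 6 of 106 groups (5.66%), and chance alone marks about 1 in 20. The sham sample of day 5 had a log2 intensity of 11.01 for Rpl19, where the other sham samples lay between 4.56 and 4.98. The TAB sample of day 28 had 4.94 for the same probe, where the other TAB samples lay between 4.35 and 4.48, and the spot was not found there. For Rpl38 the TAB sample of day 14 had 8.25, below the 8.73 to 8.91 of the other TAB samples. For the probe PH_mM_0012532 of Rpl3l the TAB sample of day 28 had 10.64, above the 9.95 to 10.06 of the others, and still below every sham sample. For the probe PH_mM_0004389 of Rps7 the TAB sample of day 5 had 7.55, below the 8.03 to 8.16 of the others. For the probe PH_mM_0015083 of Rps15a, found on no array, the TAB sample of day 14 had 0.66 against 2.87 to 3.46. No difference between the early and the late TAB effect of a ribosomal protein probe passed its test.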

How the results depend on the processing

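The median of the mean TAB effect over the ribosomal protein probes was above 0 under all 18 alternatives (0.15 to 0.37), and the median late minus early effect was below 0 under all 17 (−0.50 to −0.26), with 0 probes called in each. The day 3 median was 0.20 with 50 added to the intensity, 0.41 with the lowest tertile of probes or the probes not found on all arrays left out, and 0.58 with median scaling only. With 50 added, the medians of days 5 and 7 were 0.35 and 0.22. The medians of days 14 and 28 stayed between −0.07 and 0.09.

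The 6 higher calls became 13 with 50 added, 10 without the lowest tertile, 14 with probes not found on all arrays left out, 14 with trend and robust on, and 0 with values below 1 set to 1, where 371 of 26423 probes passed in all. The 4 lower calls became 2 with the mean of probes per gene and 1 with values below 1 set to 1. Leaving out 1 day at a time gave 0 to 7 higher and 0 to 3 lower calls. With fewer arrays the fit has fewer degrees of freedom. The counts over all probes moved with these settings too, from 2836 to 4890 with 50 added, 4365 without the lowest tertile, 4377 without probes not found on all arrays and 4726 with trend and robust on. As shares, the higher calls were 24.5% of the ribosomal protein probes against 11.8% of all with 50 added, 24.4% against 15.3% without the lowest tertile, 34.1% against 16.1% without probes not found on all arrays and 26.4% against 11.5% with trend and robust on.

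Without day 3, 5, 7 or 14 the called probes of Rpl3l no longer passed. With 1 day left out, PH_mM_0012532 ranged from −1.48 to −1.21 and mMC004378 from −0.72 to −0.57. With values below 1 set to 1, mMC004378 had −0.64 and no longer passed, and without the lowest tertile PH_mM_0012533 had −0.45 and passed. The probes of Rpl7l1 were near 0 throughout, from −0.045 to 0.12 (probe PH_mM_0008797) and from −0.081 to 0.12 (probe PH_mM_0015232) with 1 day left out, and their sign is not settled. The causes of these moves were not tested.

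The samples were paired by day. After subtraction of the group means, the TAB and the sham sample of a day correlated over all kept probes with r = 0.11, 0.00, 0.05, 0.02 and 0.02 on days 3, 5, 7, 14 and 28. With no replicate block, 13 ribosomal protein probes were higher (24.5%, against 10.1% of all kept probes) and 4 lower, and 3875 of all kept probes passed.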
